A study of Mus musculus with 16 samples.

Results

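The alpha-2-macroglobulin gene A2m, the main receptor of its product (Lrp1), 4 serpin genes (Serpine2, Serpinf1, Serping1 and Serpina3n) and 3 genes of plasminogen activation (Plau, Plat and Plaur) were followed in tail tendon fascicles of wild type mice and of mice with Vhl deleted by ScxCre. These 9 genes of 25719 in the count files were found by matching Ensembl identifiers to mouse symbols, and all 9 passed the expression filter. They were chosen by function and by their fitted knockout minus wild type differences in these same libraries, A2m being the gene with the largest fitted increase of all 14803 tested genes. The knockout and wild type levels of the 9 genes are therefore given as a description, with errors and without a test.

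RNA was sequenced from whole fascicles, the collagen strands of the mouse tail, in 16 libraries, of which 8 were labelled wild type and 8 knockout. The series' design text gives the knockout as ScxCre;Vhlf/f: Cre recombinase, driven by the tendon gene Scx, removes a floxed part of Vhl in cells that have expressed Scx. Whether the wild type mice carried Cre or the floxed alleles, the age and sex of the mice, and whether a library came from 1 mouse or several are not given in the sources used here. The p-values below thus measure the spread between these libraries, which may be partly technical.

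Alpha-2-macroglobulin is a large secreted protein that traps proteases of many classes after they cut its bait region, and LRP1 takes up the complexes. Serpins are single-use protease inhibitors that are cut and then hold the enzyme covalently. In the plasminogen system, the activators uPA (Plau) and tPA (Plat) convert plasminogen to plasmin, the uPA receptor (Plaur) holds uPA at the cell surface, and several serpins block the activators. Plasmin dissolves fibrin and can activate matrix metalloproteinases, and in tendon such proteolysis is part of matrix turnover and repair.

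Total counts ran from 10792900 to 16379401 in the wild type and from 10488355 to 18753254 in the knockout libraries. Levels are CPM, a gene's counts divided by the library's size in the field's usual unit, with sizes scaled by the trimmed mean of M-values (TMM). A count of 3, used as the floor of detection, corresponded to 0.209 to 0.336 CPM in the wild type and 0.145 to 0.256 CPM in the knockout, counting error only. Vhl lay between 7.51 and 10.9 CPM in the knockout and between 14.1 and 25.8 CPM in the wild type, so every library followed its label. In the marker lists that follow, a gene rose or fell where its adjusted p was under 0.05 (edgeR, Benjamini-Hochberg over all tested genes), as it was for 48.3% of all tested genes, 25.6% higher and 22.7% lower in the knockout. Of 10 tenocyte markers, all tested, 7 fell and none rose, with sums of 136600 to 386500 CPM in the wild type and 82410 to 183900 CPM in the knockout. Most of that sum was Col1a1 and Col1a2, which other matrix cells express too. The tenomodulin gene Tnmd was at 819.5 CPM or more in every library. Scx, the gene that drives Cre, varied widely between libraries. It ran from 54.5 to 1033 CPM in the wild type (median 96.3) and from 56.2 to 1251 CPM in the knockout (median 83.1). Of the 12 endothelial markers on a fixed list, 9 were tested and 7 rose. Their summed level was 40.8 to 58.9 CPM in the wild type and 59.7 to 554.6 CPM in the knockout. All 11 macrophage markers were tested and 4 rose, with sums of 1208 to 1759 and 1349 to 1979 CPM. Of the 13 skeletal muscle markers, 1 rose, and the sum reached 9490 CPM in wild type library 5 and 14810, 21600 and 19570 CPM in knockout libraries 6, 7 and 8. Of the 6 erythroid markers 5 were tested and all 5 rose, with sums of 15.1 to 50.7 CPM and 77.2 to 559.6 CPM. In tissue libraries such as these, fewer cells of a type and less RNA per cell cannot be told apart.

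The start regions of the member with the largest decrease and of the one with the largest increase among those in the sequence table are shown first. The RefSeq promoter table (GRCm38.p6) held 5 of the 9 genes (Lrp1, Serpine2, Serpinf1, Serpina3n and Plaur), each as 300 bases from 250 before to 50 after the annotated start, written 5′ to 3′ along the gene. Capitals mark ACGTG on either strand, a core that HIF can recognise. Serpinf1 lies at chr11:75422574-75422873 on the minus strand and Plaur at chr7:24462233-24462532 on the plus strand.
Serpinf1: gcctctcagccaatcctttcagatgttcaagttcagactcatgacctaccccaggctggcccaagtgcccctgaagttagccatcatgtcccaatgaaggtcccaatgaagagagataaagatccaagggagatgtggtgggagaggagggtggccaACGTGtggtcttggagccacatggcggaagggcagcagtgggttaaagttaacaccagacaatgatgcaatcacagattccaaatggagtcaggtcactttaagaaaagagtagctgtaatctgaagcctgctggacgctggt
Plaur: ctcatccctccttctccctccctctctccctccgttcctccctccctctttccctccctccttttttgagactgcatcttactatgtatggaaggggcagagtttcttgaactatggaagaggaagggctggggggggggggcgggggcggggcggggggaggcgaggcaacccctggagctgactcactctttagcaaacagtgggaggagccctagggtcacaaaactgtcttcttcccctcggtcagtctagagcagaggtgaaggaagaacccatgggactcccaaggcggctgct
The Serpinf1 window held 1 ACGTG, which begins 93 bases upstream of the start, and the Plaur window held none. No GCGTG, the other form of the core, was found in any of the 5 windows, and the remaining 4 held no ACGTG. Over all 32851 windows of the table, 43.8% held ACGTG or GCGTG on either strand. The motif TTCNNNGAA, recognised by STAT factors, was found once, 232 bases upstream of the Lrp1 start, and 8.30% of all windows held it. A match describes letters in the window and not a bound site.

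A2m was near zero in every wild type library and abundant in every knockout library. In the wild type, 5 of 8 libraries had no A2m count and the highest had 2, for 4 counts in all. Knockout libraries held between 1565 and 3191 counts, or 105 CPM at the lowest, 159 CPM at the median and 177 CPM at the highest. The groups lay far apart, and the knockout mean of 153 ± 26.2 CPM (SD, n = 8) was at least 575-fold higher than the wild type floor of 3 counts per library, averaged over the 8 libraries. Even the lowest knockout library was at least 313.5-fold above the highest wild type floor. A2m is on chromosome 6, and in the GENCODE M21 annotation no exon of it or of the other 8 members overlaps another gene.

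Alpha-2-macroglobulin is made by the liver and by other tissues. Of 7 hepatocyte markers, Apoa1, Ttr, Apob and Tat were at or under 3 counts in every library, and the summed marker level was lower in the knockout (0.913 to 3.93 CPM) than in the wild type (14.9 to 37.9 CPM). Almost all of that wild type sum was Cps1, at 28.0 CPM. A2m and the endothelial markers were compared from library to library. Knockout library 2, with the lowest endothelial sum (59.7 CPM), had 176 CPM of A2m, and knockout library 7, with the highest (554.6 CPM), had 105 CPM. Knockout library 8, with the next highest endothelial sum (392.2 CPM), had the most A2m, at 177 CPM. Over the 8 knockout libraries Pearson's r of A2m with the endothelial score was -0.530 and Spearman's rho was -0.310 (exact permutation p = 0.183 and 0.462, adjusted 0.582 and 0.854), and r was -0.017 without the 2 libraries farthest from the median score. With the macrophage score r was 0.402 and rho 0.429, and with the muscle score r was -0.273 and rho -0.071. Neither passed the exact permutation test after adjustment. Which cells made the A2m RNA was not tested.

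The receptor gene Lrp1 was abundant in both genotypes. It lies on chromosome 10 and encodes an endocytic receptor that also clears activator and serpin complexes. Its wild type libraries lay at 3128, 4087 and 4770 CPM (lowest, median, highest) and its knockout libraries at 2133, 3146 and 4045 CPM. Most knockout libraries were below most wild type libraries, but the ranges overlapped. The log2 difference was -0.41 (SE 0.122, 95% interval -0.67 to -0.15), a level 24.5% lower. With total counts in place of TMM scaling it was -0.10. The median over every tested gene is 0.32 on that scale and 0.02 with TMM. The gene for the receptor-associated chaperone that escorts LRP1 through the endoplasmic reticulum, Lrpap1, stood at 64.4 ± 6.92 CPM in the wild type and 57.7 ± 4.33 CPM in the knockout (SD, n = 8; log2 difference -0.16, edgeR quasi-likelihood F test, Benjamini-Hochberg adjusted p = 0.0586).

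**Figure D1:**
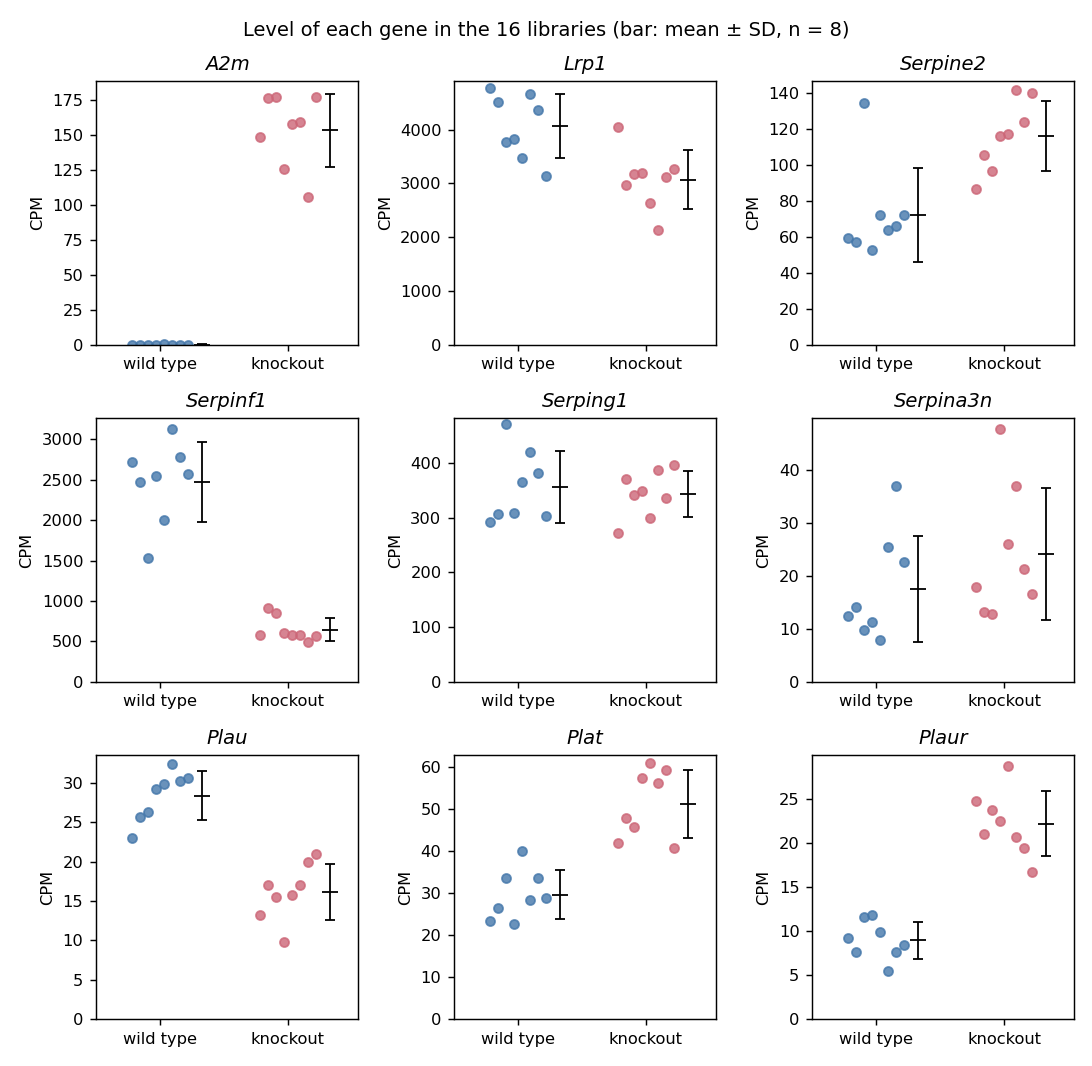
CPM (TMM-scaled) of the 9 genes in each of the 8 wild type (blue) and 8 knockout (red) libraries, each panel on its own linear axis from 0, with points in the order of the replicate numbers and bars for the mean ± SD. A2m is near 0 in all wild type libraries and at 105 CPM or more in all knockout libraries, Serpinf1 and Plau are lower and Plat and Plaur higher in the knockout without overlap, and wild type library 3 stands high for Serpine2.

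The 2 plasminogen activators went opposite ways. Plau, on chromosome 14, measured 23.0, 29.5 and 32.4 CPM in the wild type (lowest, median, highest) and 9.72, 16.4 and 21.0 CPM in the knockout. Every knockout library was below every wild type library on the TMM scale, but with total counts the groups overlapped. The log2 difference was -0.81 (SE 0.121, 95% interval -1.07 to -0.55), which is 43.0% lower. Plat, on chromosome 8, measured 22.7, 28.6 and 39.9 CPM in the wild type and 40.6, 51.9 and 60.8 CPM in the knockout. Here every knockout library was above every wild type library, by the narrow margin of 40.6 against 39.9 CPM. The log2 difference was 0.79 (SE 0.118, 95% interval 0.54 to 1.05), or 1.73-fold.

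The receptor of uPA differed more than its ligand. Plaur, on chromosome 7, encodes a lipid-anchored surface protein. It lay at 5.48, 8.80 and 11.8 CPM in the wild type and at 16.7, 21.8 and 28.8 CPM in the knockout (lowest, median, highest). The groups did not overlap, and the log2 difference was 1.31 (SE 0.139, 95% interval 1.01 to 1.61), or 2.48-fold. Within each library, Plaur per kilobase of exon was 0.153 to 0.396 times Plau in the wild type and 0.721 to 2.09 times Plau in the knockout. The corresponding ratio of Plat to Plau went from 0.294 to 0.506 in the wild type to between 0.734 and 2.23 in the knockout. A ratio shows an unequal difference between the genes of a pair and not which of them moved.

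Among the 4 serpins followed here, Serpinf1 was the most abundant and had the largest decrease. Serpinf1, on chromosome 11, encodes PEDF, a secreted serpin without known protease inhibition that is best known for limiting vessel growth and binds collagen. Its levels were 1528, 2557 and 3130 CPM in the wild type and 498, 583 and 910 CPM in the knockout (lowest, median, highest). No library of the knockout reached the lowest of the wild type. The log2 difference was -1.93 (SE 0.151, 95% interval -2.26 to -1.61), a level 73.8% lower. The lowest wild type value was that of library 3, in which type I collagen took the smallest share of the counts (11.95%, where the other wild type libraries had 19.7% to 29.2%).

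Serpine2, on chromosome 1, encodes protease nexin-1, an inhibitor of thrombin and of the plasminogen activators. It lay at 52.6, 64.8 and 134 CPM in the wild type and at 86.4, 117 and 142 CPM in the knockout (lowest, median, highest). The overlap came from wild type library 3 alone, at 134 CPM, since the next highest wild type library was at 72.2 CPM. The log2 difference was 0.68 (SE 0.168, 95% interval 0.32 to 1.04), or 1.61-fold, and 0.87 (SE 0.104) without that library.

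For the other 2 serpins the interval of the difference included 0. Serping1, on chromosome 2, encodes the C1 inhibitor, which blocks C1r, C1s and the contact proteases. Its libraries spread over 291.6 to 472.0 CPM in the wild type and 272 to 397 CPM in the knockout, with means of 356 ± 65.5 and 344 ± 42.2 CPM (SD, n = 8). The log2 difference was -0.05 (SE 0.107, 95% interval -0.28 to 0.18), and it was 0.24 with total counts, where the median gene is at 0.32. Serpina3n, on chromosome 12, encodes an acute-phase inhibitor of serine proteases. It varied more within than between the genotypes, from 7.97 to 37.0 CPM in the wild type (median 13.3) and from 12.9 to 47.9 CPM in the knockout (median 19.7). Its log2 difference was 0.47 (SE 0.358, 95% interval -0.30 to 1.23). Because the Serpina3 genes are close copies of each other, reads may be split between them and the Serpina3n values are uncertain.

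Groups did not overlap for 5 of the 9 genes, against 19.4% of all tested genes. By the adjusted p-value, 48.3% of all tested genes differed, 25.6% being higher and 22.7% lower in the knockout. A2m, Plat and Plaur were the 3 without overlap on the higher side (10.8% of all tested genes) and Serpinf1 and Plau the 2 on the lower side (8.61%). As the genes were chosen with this contrast known, nothing is read from these shares. Leaving out wild type library 3 brought the number to 6, with Serpine2 added, and total counts brought it to 4, with Plau lost.

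Relations within a genotype do not depend on how the genes were chosen. Each member was set against the mean log2 CPM of the muscle, endothelial and macrophage markers over the 8 libraries of a genotype, in 51 comparisons (A2m in the knockout alone). None passed after Benjamini-Hochberg adjustment of exact permutation p-values, also with Spearman's rho or total counts, and 4 had an unadjusted p under 0.05. The strongest was Serpinf1 with the endothelial score in the knockout (r = -0.819, rho = -0.881, exact permutation p = 0.00288 and 0.00724, adjusted p = 0.147 and 0.273, n = 8), and r was -0.612 without the 2 libraries farthest from the median score. Plaur with the muscle score in the knockout gave r = -0.812 and rho = -0.738 (exact permutation p = 0.0118 and 0.0458, adjusted p = 0.302 and 0.750, n = 8), and -0.630 without the 2 farthest. The other two were in the wild type with the macrophage score, Serpina3n at r = 0.771 and rho = 0.619 (exact permutation p = 0.0271 and 0.115, adjusted p = 0.461 and 0.750, n = 8; r = 0.669 without the 2 farthest) and Plau at r = 0.724 and rho = 0.857 (exact permutation p = 0.0410 and 0.0107, adjusted p = 0.523 and 0.273, n = 8; r = 0.752 without the 2 farthest). Without wild type library 5 and knockout libraries 6, 7 and 8, the 4 richest in muscle markers, the same 5-gene count was found, and the log2 differences were -1.85 for Serpinf1, 1.46 for Plaur, 0.85 for Plat, -0.98 for Plau and 0.53 for Serpine2. This exclusion was chosen after seeing the data.

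Spread between libraries differed among the members. Serpina3n had a coefficient of variation of 56.7% among wild type and 51.5% among knockout libraries. Wild type values of the other members, A2m left out, ran from 11% (Plau) to 36.1% (Serpine2), and knockout values from 12.3% (Serping1) to 22.8% (Serpinf1). The median over the 8215 tested genes at least as abundant as the least abundant member, Plaur, was 10.7% among wild type and 11.5% among knockout libraries. The genes whose log2 CPM followed a member most closely within genotypes, chosen as the highest of 13671 and given without a p, were Dhrs13 for A2m (r = 0.974 over the 8 knockout libraries), Crocc, Ltbp3 and Inf2 for Lrp1 (r = 0.963, 0.931 and 0.931 over 16 libraries) and Clu, Glce and Sparc for Serpinf1 (r = 0.929, 0.914 and 0.906). All points of such a correlation share their libraries and depth.

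Levels between genes were compared per kilobase of exon, with exon lengths from GENCODE M21. Serpinf1, Lrp1 and Serping1 formed an upper tier in both genotypes. In the wild type they stood at 1047 ± 209.9, 229 ± 33.9 and 153 ± 28.2 CPM per kilobase (SD, n = 8), and Serpinf1 was above Lrp1 in every library with no overlap. In the knockout they stood at 274 ± 62.5, 173 ± 30.9 and 148 ± 18.2, and the ranges of all neighbours in that order overlapped, although Serpinf1 exceeded Lrp1 in 8 of 8 libraries. A lower tier began at 12 ± 1.32 CPM per kilobase with Plau in the wild type. Serpine2, Serpina3n, Plat and Plaur followed, at 8.72, 8.52, 4.73 and 3.41, each overlapping its neighbour. A2m was last in the wild type. In the knockout A2m led the lower tier at 21.9 ± 3.73, above Serpine2 in all 8 libraries at 14 ± 2.36 (their ranges overlapped), and Plau had moved to the last place at 6.83 ± 1.51 without being separated from Plat (8.19 ± 1.30) or Plaur (8.49 ± 1.4).

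**Figure D2:**
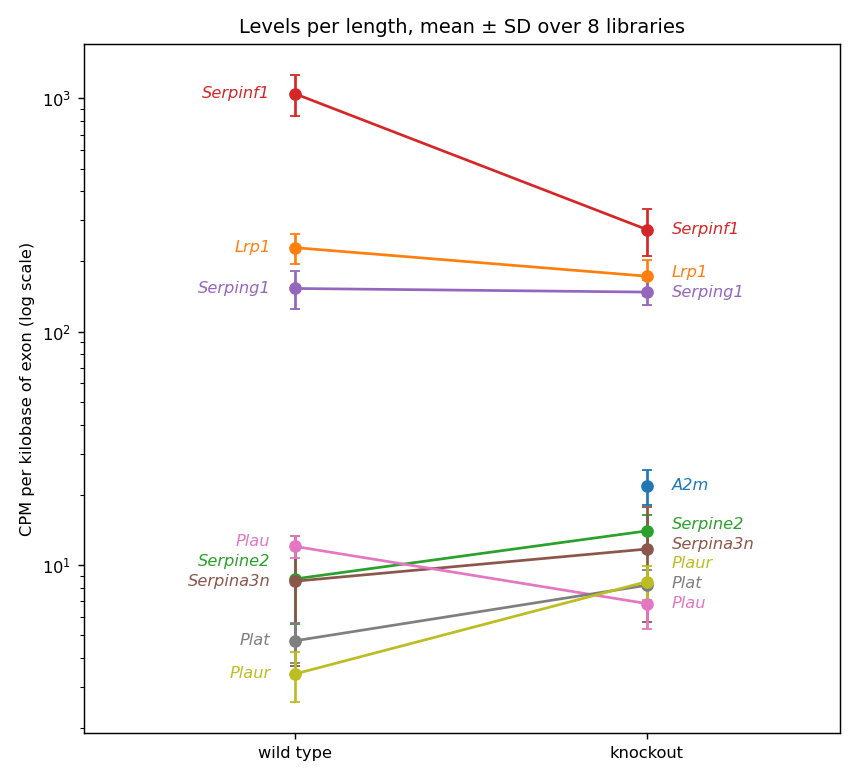
Mean CPM per kilobase of exon (log axis) of each gene in the wild type and the knockout, with error bars for the SD over 8 libraries and lines joining the 2 means of a gene. A2m has no wild type point because its libraries were at or under 3 counts, Serpinf1 drops from 1047 to 274, and Plau crosses Plat and Plaur.

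The rest of the plasminogen system was read from a list of 18 further genes, of which 8 passed the expression filter. This list and the gene lists below were chosen with earlier results of these data known. Their adjusted p-values and called shares are therefore a description. Nothing is read from a called share that differs from that of all tested genes. The threshold was an adjusted p under 0.05 in the edgeR quasi-likelihood F test (Benjamini-Hochberg over all tested genes), which 48.3% of genes passed. On this list 2 rose, 2 fell and 4 did not pass, with a median log2 fold change of 0.12 beside 0.02 for all tested genes. Eno1, a glycolytic enzyme that can bind plasminogen at the cell surface, rose by 1.57 (SE 0.0937, edgeR adjusted p = 5.95e-11). Plgrkt, a plasminogen receptor, fell by 0.62 (SE 0.0996, edgeR adjusted p = 3.29e-05), and Hpn, a membrane serine protease, fell by 1.22 (SE 0.249, edgeR adjusted p = 4.25e-04).

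The substrate of the activators was barely detected. Plg had 18 counts over all 16 libraries, at most 4 in one, and was not tested. The liver serpin alpha-2-antiplasmin (Serpinf2), the main inhibitor of plasmin, had 15 counts, and PAI-2 (Serpinb2) had 97, with 0.316 ± 0.170 CPM in the wild type and 0.561 ± 0.289 CPM in the knockout (SD, n = 8). The fibrinogen genes Fga and Fgg had no count in any library and Fgb had 1. The plasminogen-binding genes Anxa2 (0.21, adjusted p = 0.137) and S100a10 (-0.27, adjusted p = 0.134) did not pass the edgeR threshold.

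Other members of the alpha-2-macroglobulin and thioester family split in direction. Of 9 listed genes 8 were in the files and 4 were tested, of which 2 rose, 1 fell and 1 did not pass. The called share was 75% beside 48.3% of all tested genes. Pzp, a close relative of A2m on the same chromosome, measured 2.32, 3.74 and 4.69 CPM in the wild type and 0.355, 1.56 and 2.19 CPM in the knockout. It fell without overlap, by 1.34 on the log2 scale (SE 0.251, edgeR adjusted p = 1.91e-04). A2ml1 (3 counts), Mug1 (1 count) and Mug2 (none) were not tested. Cd109, a membrane-anchored relative that binds TGF-beta, stood at 515 ± 45.2 and 624 ± 141 CPM (SD, n = 8; log2 difference 0.28, edgeR adjusted p = 0.0575). It passed with total counts (0.59), with a muscle covariate (0.40), without the 4 muscle-rich libraries (0.40), and without knockout library 1 (0.30), 7 (0.32) or 8 (0.34).

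The 2 genes of that family that rose are complement components, and they also belong to the list of the pathway that the C1 inhibitor restrains. Of its 18 genes 15 were tested, of which 5 rose, 3 fell and 7 did not pass, with a median of 0.04. Those called made up 53.3%, beside 48.3% of all tested genes. C1s1 and C1ra encode proteases that the C1 inhibitor blocks. C1s1 measured 5.27, 8.76 and 12.3 CPM in the wild type and 98.4, 142.9 and 185 CPM in the knockout (lowest, median, highest), a rise of 4.02 (SE 0.228, edgeR adjusted p = 2.60e-10). C1ra measured 6.21, 9.25 and 12.6 against 35.0, 51.7 and 61.0 CPM, a rise of 2.49 (SE 0.155, edgeR adjusted p = 1.70e-10). The fifth gene that rose was Masp1, a lectin pathway protease, by 1.38 (edgeR adjusted p = 2.45e-04). The ranges of neither gene overlapped between the genotypes, while those of Serping1 did. Per kilobase, C1s1 was 0.00999 to 0.0279 times Serping1 in the wild type and 0.210 to 0.380 times Serping1 in the knockout.

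Of the components further along the pathway, C4b and C3 rose and C2, another substrate of C1s, did not pass (log2 difference 0.08, edgeR adjusted p = 0.574). C4b rose from 13.8 ± 4.26 to 96.3 ± 11.6 CPM and C3 from 39.8 ± 11.2 to 276 ± 43.0 CPM (SD, n = 8), log2 fold changes of 2.81 and 2.80 (edgeR adjusted p = 2.10e-11 and 3.23e-11). C1qa, C1qb and C1qc, the recognition subunits, differed by 0.01, 0.25 and -0.12 and did not pass (edgeR adjusted p = 0.943, 0.0675 and 0.493). These C1q genes are also macrophage markers and count in the macrophage sum, which overlapped between the genotypes as given above. The 4 macrophage markers that rose were Ptprc, Cd14, Lyz2 and Adgre1, by 0.87, 0.47, 0.41 and 0.41. Cfb, which acts in the alternative pathway, fell by 1.27 (edgeR adjusted p = 1.20e-08). The membrane regulators Cd55 and Cd59a fell by 0.52 and 0.66 (edgeR adjusted p = 0.00321 and 0.00254), but neither passed on the total-count scale, at -0.25 and -0.36, and Cd55 did not pass without the 4 muscle-rich libraries, at -0.44. C1ra, C1s1 and C4b have near-identical copies. Cfb shares 2246 of its 2825 exon bases with Gm20547, and C2 shares 1656 of its 3872. The counts of all these genes are therefore uncertain.

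**Figure D3:**
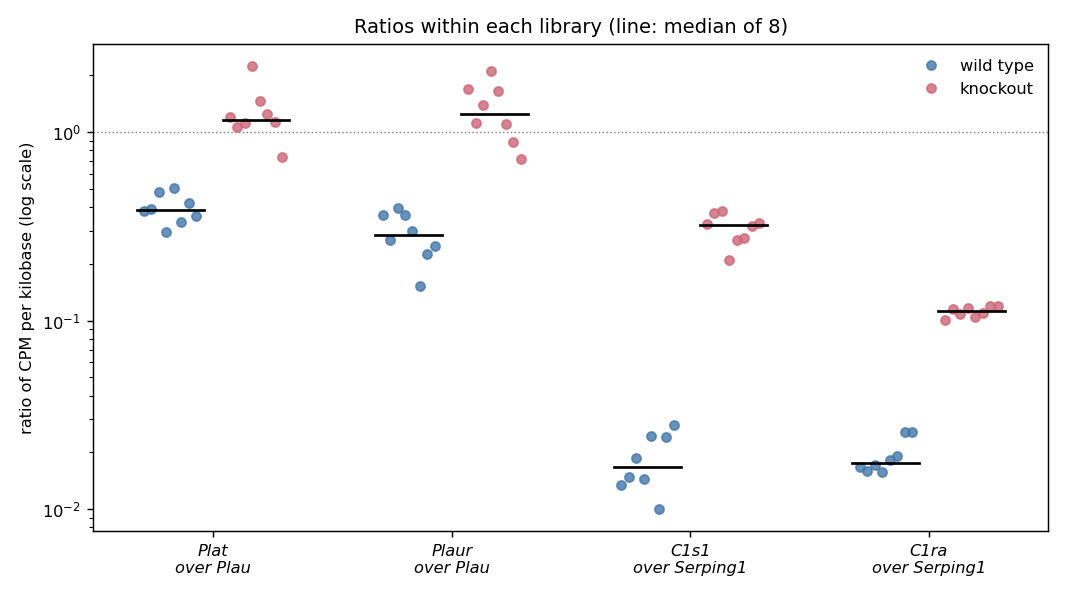
Ratio of CPM per kilobase between 2 genes within each library (log axis), for wild type (blue) and knockout (red) libraries, with a line at the median of 8 and a dotted line at 1. The Plat to Plau median goes from 0.387 to 1.16 and C1s1 to Serping1 from 0.0168 to 0.321, without overlap.

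Most other serpins were little expressed in these fascicles. Of 58 further serpin genes in the files 12 were tested, 46 were below the filter and 15 of those had no count in any library. Of the 12, 3 rose (Serpina3c and Serpinb1a among them), 2 fell (Serpinb6c and Serpinb6a) and 7 did not pass, a called share of 41.7% beside 48.3% of all genes, with a median of 0.06. Serpinb1a, an intracellular inhibitor of neutrophil proteases, rose from 19.3 ± 3.90 to 32.6 ± 6.80 CPM (SD, n = 8), by 0.75 (edgeR adjusted p = 1.10e-04). Serpina3c rose by 0.92 (edgeR adjusted p = 0.0177), a call lost without the 4 muscle-rich libraries, at 0.58, and under a muscle covariate, at 0.80. Serpinb6c fell by 2.01 (edgeR adjusted p = 3.53e-06), from 4.64 ± 1.96 to 1.13 ± 0.420 CPM. Serpinb6a fell by 0.39 (edgeR adjusted p = 0.00817), a call not made on the total-count scale, at -0.09, and its exons overlap those of Nqo2 and Ripk1 on the other strand. The clade A and B genes named here have close copies, so their counts are uncertain.

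Serpinh1, the collagen chaperone HSP47, was the most abundant of these further serpins. It measured 698 ± 125 CPM in the wild type and 645 ± 125 CPM in the knockout (SD, n = 8) and did not pass (log2 difference -0.11, edgeR adjusted p = 0.474). With total counts its sign turned, at 0.20. Serpine3 was near 1 CPM in both genotypes (0.994 and 1.16 CPM) and did not pass (edgeR adjusted p = 0.565). Of its 1402 exon bases, 348 overlap Ints6 on the other strand, so its counts are uncertain.

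Receptors of the LDL receptor family other than Lrp1 moved in both directions. Of 15 listed genes 13 were tested, of which 4 rose, 5 fell and 4 did not pass, with a median of -0.16. That is a called share of 69.2% beside 48.3% of all tested genes. Vldlr, which also takes up serpin and protease complexes, measured 28.0, 45.7 and 68.9 CPM in the wild type and 390.0, 458.6 and 669 CPM in the knockout (lowest, median, highest), without overlap. It rose by 3.41 (SE 0.202, edgeR adjusted p = 1.66e-10). Lrp8 rose by 1.36, the Wnt co-receptor Lrp5 by 1.01 and Ldlrad3 by 0.34 (edgeR adjusted p = 3.09e-05, 2.16e-07 and 6.67e-04). Sorl1, an intracellular sorting receptor, fell from 56.1 ± 13.4 to 9.10 ± 2.32 CPM (SD, n = 8), by 2.62 (edgeR adjusted p = 8.70e-10). Lrp4 fell by 0.65, Lrp6 by 0.32 and Mesd, a chaperone of these receptors, by 0.28 (edgeR adjusted p = 2.57e-04, 3.13e-04 and 0.00266). On the total-count scale Lrp6 did not pass, at -0.02, and Mesd changed sign, at 0.03. Mesd shares 1323 of its 5558 exon bases with Gm49493, so its counts are uncertain.

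Thrombin signalling and coagulation genes are the other partners of Serpine2 and the plasminogen system. Of 23 listed genes 10 were tested, of which 5 rose, 3 fell and 2 did not pass, with a median of 0.30. Those called made up 80%, beside 48.3% of all tested genes, and as for the other lists nothing is read from this share. The thrombin receptor F2r rose from 10.1 ± 1.78 to 47.9 ± 20.6 CPM (SD, n = 8), by 2.25 (edgeR adjusted p = 3.92e-07), and the related receptor F2rl1 from 0.387 ± 0.250 to 6.05 ± 3.12 CPM, by 3.93 (edgeR adjusted p = 2.59e-07). Both rose without overlap. In the wild type F2rl1 lay near the floor of detection, with at most 9 counts in a library and 1 library at 0. It passed the expression filter through the knockout libraries, where it is high. Its fold change is therefore uncertain, and its p is not read as support. Tissue factor (F3) and its inhibitor Tfpi rose together, by 0.82 and 0.76 (edgeR adjusted p = 2.33e-04 for each), and the scarce Tfpi2 rose by 1.00 (edgeR adjusted p = 0.0120). The Tfpi2 call was lost under a muscle covariate, at 0.74, and without the 4 muscle-rich libraries, at 0.63. Thrombomodulin (Thbd) fell without overlap, by 0.76 (edgeR adjusted p = 1.03e-04). F13a1, the fibrin cross-linking enzyme, fell by 0.41 and Pros1, the protein S gene, by 0.16 (edgeR adjusted p = 0.00675 and 0.0472). On the total-count scale F13a1 did not pass, at -0.11, and Pros1 changed sign, at 0.14. Pros1 kept its call in 12 of 27 alternatives, and leaving out wild type library 1, 2, 3, 6 or 8 or any knockout library but 6 ended it. Prothrombin (F2) had 31 counts over the 16 libraries and was not tested.

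**Figure D4:**
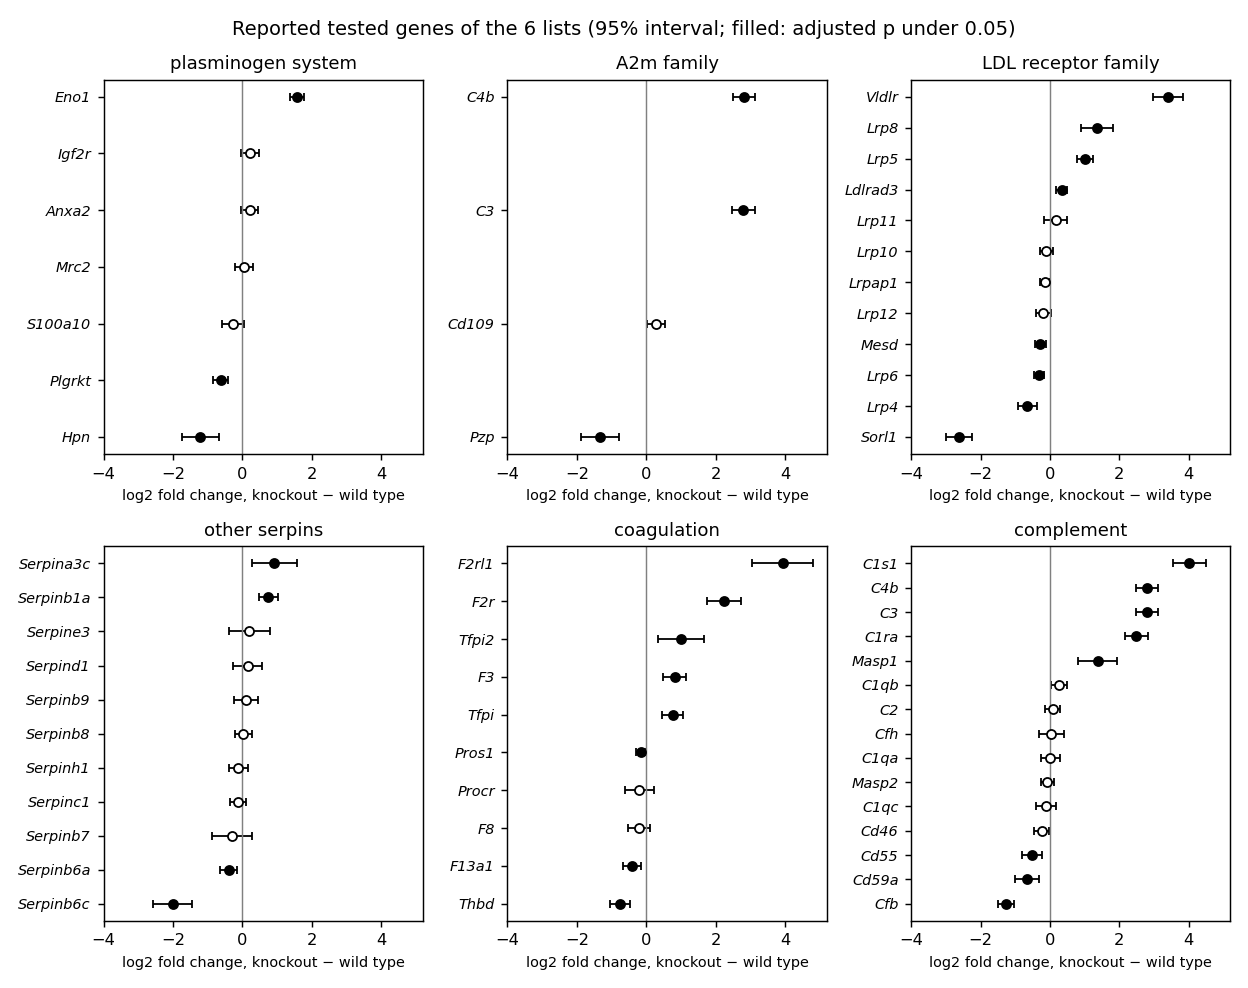
Log2 fold change (knockout minus wild type) of the tested genes of the 6 lists that are reported here, with 95% intervals from the edgeR fit, and filled symbols for an adjusted p under 0.05. C1s1, Vldlr and F2rl1 lead their panels, at 4.02, 3.41 and 3.93, and Sorl1 and Serpinb6c lie lowest in theirs, at -2.62 and -2.01. The F2rl1 value is uncertain because its wild type libraries lay near the floor of detection.

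Of 9 mural markers 8 were tested, of which 5 rose and 1 fell, and their summed level, 354.4 to 509.6 CPM in the wild type and 365.3 to 2144 CPM in the knockout, overlapped between the genotypes. The endothelial sums given above did not. F2r, F2rl1 and Thbd are expressed by vessel cells among others, and the part of those cells in their differences was not tested. On the TMM scale 53.0% of all calls were higher in the knockout, and 85.4% with total counts.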

How the data were processed

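The authors deposited 1 file of raw whole-number counts per gene for each of 16 libraries. The submitters' processing notes name kallisto, featureCounts and GRCm39; their roles, versions, the annotation and the strand setting are not given in the sources used here. Of 25719 identifiers, 25614 matched a symbol. Chromosomes and exon lengths came from GENCODE M21 (GRCm38). Groups and replicate numbers came from the titles.

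The fit was edgeR 4.0.16 (quasi-likelihood F test, robust, two-sided, R 4.3.3) with TMM scaling, the default expression filter and genotype alone, with Benjamini-Hochberg adjustment over 14803 genes. The 95% intervals used 14 residual degrees of freedom. On simulated counts it recovered 90 of 100 genes changed 2-fold and 67 of 100 changed 1.5-fold, among 14715 tested, and 2.48% of its calls were unchanged genes. The genes changed there were few, balanced in direction and drawn from the more abundant ones. In these data 48.3% of tested genes were called, so the simulated rates need not hold for them. No 2 libraries of a group were alike within sampling noise (lowest chi-square per degree of freedom 6.56). Members and lists were chosen with earlier results of these data known. Named from each list were at most 4 genes per direction past the threshold with a mean log2 CPM of at least 1, and a few fixed genes; a further few untested or uncalled genes were named after their values were seen. Alternatives were other scalings (DESeq2 size factors, total counts, TMM without 20 abundant genes), filters, DESeq2 1.42.0, limma 3.58.1 voom, non-robust dispersion, a replicate block, a muscle covariate and each library left out. Whether replicate numbers pair libraries is not given in the titles, and the correlations of deviations given below cannot settle it. Some genes of the lists are in the counts and medians but are not reported here.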

Additional observations from a re-analysis of the deposited data

Results flagged for a closer look

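Serpine2 in wild type library 3 stood apart from the other wild type libraries. Its log2 CPM was 7.07, or 134 CPM, and the next highest library was at 6.18, or 72.2 CPM, a gap of 0.663 of the range of the 8 libraries and above Dixon's 95% critical value. This was 1 of 17 checks of 8 libraries, and chance gives about 1 in 20. The same library had the lowest Serpinf1 (1528 CPM), the highest Serping1 (472.0 CPM) and the lowest share of type I collagen counts (11.95%); what sets it apart was not tested.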

How the results depend on the processing

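Scaling to total counts moved most members' values, and the median of all genes was 0.32. On that scale the log2 lower bound of A2m was 9.47 (9.17 with TMM), and the log2 differences were -0.10 for Lrp1, -1.61 for Serpinf1, -0.51 for Plau, 1.09 for Plat and 0.24 for Serping1. Genes past the threshold were 5 higher on the plasminogen list, 2 lower in the LDL receptor family, 1 lower among other serpins, 1 lower for coagulation, and 9 higher and 1 lower for complement. Pros1 turned to 0.14, Serpinh1 to 0.20 and Mesd to 0.0308. With no expression filter, 4 plasminogen genes, 8 other serpins and 10 coagulation genes were higher, and 5 other serpins with a mean count of at least 10; more genes are tested in both. Serping1 was 0.0189 with limma-voom and between -0.0904 and 0.0107 with each library left out, the latter without wild type library 3. Over all alternatives Plaur stayed between 1.23 and 1.6, Plat between 0.74 and 1.09, Plau between -0.98 and -0.51, Serpine2 between 0.53 and 0.96, Serpina3n between 0.25 and 0.80 and Serpinf1 between -2.02 and -1.61. Pros1 lost the threshold in 14 of 27 alternatives besides the one that turned its sign. No bound for A2m was computed under other tests or covariates.

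Same-numbered libraries did not deviate together: 3 of 8 correlations of deviations exceeded 0.1 (range -0.397 to 0.394) and 1 of 8 wild type libraries correlated best with its own number. With a replicate block 7010 genes passed against 7151, and the log2 difference was -1.94 for Serpinf1, 1.33 for Plaur, 0.80 for Plat and -0.84 for Plau.

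Plg, Serpinf2, Serpinb2 and the fibrinogen genes were below the expression filter and have no test in the fit reported here.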
